A study of Mus musculus with 8 samples.

Results

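The transcriptomes of PARP1CKO and PARP1 WT immature myeloid cells (IMCs) were compared across all genes. These were 4 of the 8 libraries in the series, 2 in each group, and they are the complete set for this deletion. PARP1 WT cells came from C57BL/6 mice with the genotype PARP1 flox/flox, whose floxed gene is intact. PARP1CKO cells came from mice of the genotype PARP1 flox/flox+lysozyme-Cre, in which Cre is made from the lysozyme M locus and removes the floxed part of Parp1 in myeloid cells. All mice were 2 months old. Their marrow was passed through a strainer and cultured in M-CSF at 40 ng/mL over 3 days, and no sort before RNA extraction is described for these libraries. The other 4 libraries, PARP2 WT and PARP2CKO, had the same age, culture and Cre driver with a floxed PARP2 gene, and they are used below only where a PARP1 value is set against them.

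PARP1 is a nuclear enzyme that binds broken DNA and, using NAD, builds chains of ADP-ribose on itself and on nearby proteins, which opens chromatin and recruits repair factors. It also acts at promoters as a partner of transcription factors. M-CSF signals through the receptor encoded by Csf1r, keeps monocytes and macrophages alive and dividing, and through the ERK kinase pathway switches on a first wave of short-lived genes, the immediate-early genes.

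Between 37852450 and 50205256 reads were counted on genes in the 4 libraries, and levels are given as CPM, the counts of a gene scaled to the size of its library with edgeR's TMM factors. Macrophage and monocyte markers were high in every library, with Csf1r between 1167 and 1226 CPM, Itgam between 881 and 956 CPM and Emr1 (Adgre1, the F4/80 antigen) between 495 and 588 CPM. Neutrophil granule markers were abundant as well, with Ngp between 771 and 977 CPM, S100a9 between 858 and 1129 CPM and Mpo between 166 and 199 CPM. Ly6g was not analysed here. The T cell marker Cd3e had at most 4 counts in a library. The libraries labelled IMCs therefore hold RNA of macrophages or monocytes and of granulocytes, and in such bulk samples fewer cells of a type cannot be told apart from less RNA per cell. PARP1CKO replicate 2 stood apart from the other 3 libraries in interferon-response and B cell genes. PARP1CKO replicate 1 and PARP1 WT replicate 1 stood farthest apart in the trend of their gene levels with the GC content of genes. Values without one of these libraries are given beside many of the results that rest on it.

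Parp1 itself was examined first. Parp1, at chr1:180568924-180601254 of mm10, had 202 and 211 CPM in PARP1 WT replicates 1 and 2 and 63.2 and 59.1 CPM in PARP1CKO. Both PARP1CKO libraries were far below both PARP1 WT libraries, and both kept a clear residue of Parp1 reads. The log2 fold change was -1.75 (SE 0.178, edgeR quasi-likelihood adjusted p = 0.0134). All adjusted p-values below are Benjamini-Hochberg values over all genes tested, and come from that edgeR test where no other is named. In the PARP2 libraries Parp1 lay between 155 and 264 CPM, so the PARP1 WT level was inside their range. Reads counted on Mir6904, a microRNA locus of 67 bases inside the Parp1 gene on the same strand (chr1:180587201-180587267), followed Parp1, with 6.02 and 8.38 CPM in PARP1 WT and 2.62 and 2.06 CPM in PARP1CKO. Parp2, the closest relative of PARP1 in sequence and function, had 39.1 and 40.8 CPM in PARP1 WT and 38.3 and 37.0 CPM in PARP1CKO (log2 fold change -0.09, edgeR adjusted p = 0.501, and -0.06 without PARP1 WT replicate 2). Parp3, another DNA-dependent family member, had 50.01 and 50.7 CPM in PARP1 WT and 57.5 and 56.9 CPM in PARP1CKO, without overlap and short of the threshold (log2 fold change 0.18, adjusted p = 0.253).

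PARP1CKO IMCs differed from PARP1 WT IMCs at 14 genes, which is 0.106% of the 13197 genes tested, at an adjusted p under 0.05 in edgeR's quasi-likelihood test. Of these, 10 were lower in PARP1CKO (0.0758%), namely Parp1, Fos, Dusp1, Rgs1, Mbd2, Mmp12, Padi2, Pira1, Pira7 and Pira4, and 4 were higher (0.0303%), namely Afap1, Siglec1, Abca9 and Pdlim4. At an unadjusted p under 0.05 there were 1486 genes (11.3%), and the likelihood-ratio test of edgeR called 146 (0.599% higher and 0.508% lower) and DESeq2 called 86, each with all 14 among them. Below, a gene that was called or passed did so in the quasi-likelihood test unless another is named. The calls rest on 2 libraries a group. The count became 3 without PARP1 WT replicate 1, 1 without PARP1 WT replicate 2, 33 without PARP1CKO replicate 1 and 7 without PARP1CKO replicate 2, and each of the 14 genes missed the threshold in at least 1 of these fits while keeping its direction. An exact permutation test of 2 against 2 libraries has 0.333 as its smallest two-sided p, and the fit across all genes was used instead.

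**Figure D1:**
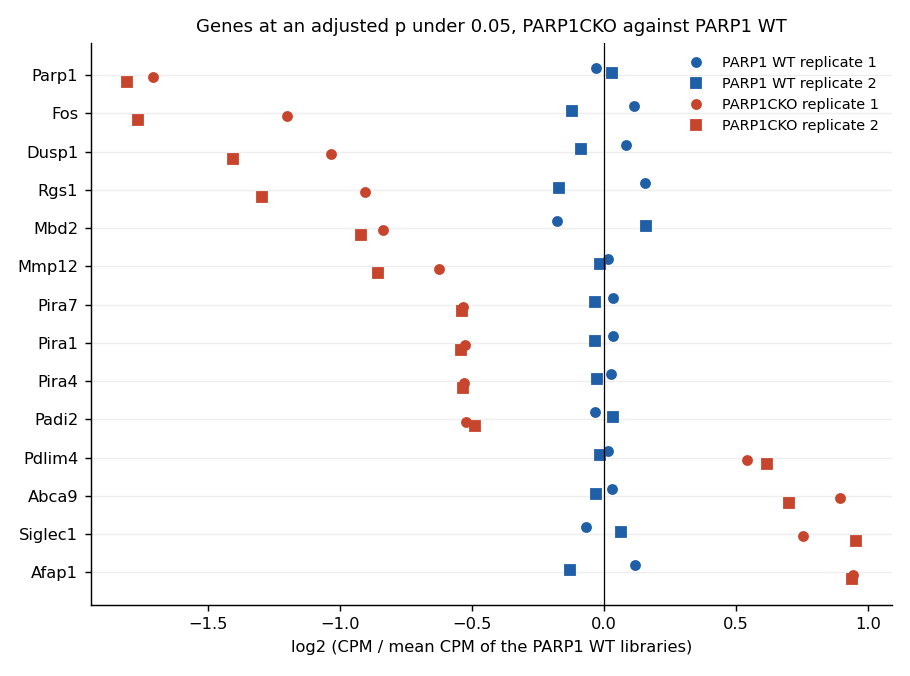
Level of the 14 genes in each of the 4 libraries, as log2 of CPM over the mean of the PARP1 WT libraries (horizontal axis), with 1 row per gene and 1 point per library. The 2 groups do not overlap in any row, Parp1 lies farthest to the left, and the replicates of Fos and Rgs1 are the most spread.

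The 4 genes that were higher in PARP1CKO are known from macrophages or from the cytoskeleton. Siglec1 encodes sialoadhesin, a sialic acid receptor of tissue macrophages that interferon can induce. It had 70.0 and 76.7 CPM in PARP1 WT and 124 and 142 CPM in PARP1CKO, so both PARP1CKO libraries were higher, including replicate 1 (log2 fold change 0.86, SE 0.0864, adjusted p = 0.0134). Abca9, a lipid transporter of the ABC family, had 9.30 and 8.93 CPM in PARP1 WT and 16.9 and 14.8 CPM in PARP1CKO (log2 fold change 0.80, adjusted p = 0.0134). It missed the threshold with the 4 PARP1 libraries alone (adjusted p = 0.0651). Afap1, which links Src kinase to actin filaments, had 5.43 and 4.58 CPM in PARP1 WT and 9.62 and 9.58 CPM in PARP1CKO (log2 fold change 0.95, adjusted p = 0.0350). Pdlim4, a PDZ and LIM domain protein of the actin cytoskeleton, had the smallest SE of them. It had 27.8 and 27.2 CPM in PARP1 WT and 40.0 and 42.2 CPM in PARP1CKO, and its log2 fold change was 0.58 (SE 0.0487, adjusted p = 0.0122). These adjusted p-values are from edgeR. Afap1 missed the threshold in 7 of 16 settings, among them the 4 PARP1 libraries alone (adjusted p = 0.0651), the replicate block (0.0648) and each fit with a library left out. The PARP2 libraries place these genes differently. They held 37.5 to 42.4 CPM of Pdlim4, so PARP1CKO was at their level and PARP1 WT below it. For Afap1 they held 7.73 to 8.87 CPM and for Siglec1 96.8 to 123 CPM, in both cases between the PARP1 groups, and for Abca9 8.85 to 11.1 CPM, near PARP1 WT.

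Of the lower genes, Mmp12 and Padi2 encode enzymes. Mmp12, the macrophage elastase, had 380 and 373 CPM in PARP1 WT and 245 and 208 CPM in PARP1CKO (log2 fold change -0.73, SE 0.0773, edgeR adjusted p = 0.0134). Both PARP1 groups lay below the 4 PARP2 libraries, which ranged from 431 to 482 CPM, with PARP1CKO the farther from them. Padi2, which converts arginine to citrulline in histones and other proteins, had 27.8 and 29.0 CPM in PARP1 WT and 19.8 and 20.2 CPM in PARP1CKO, again with no overlap, and the PARP2 libraries lay between the groups from 24.8 to 27.04 CPM (log2 fold change -0.51, SE 0.0567, adjusted p = 0.0187). With the 4 PARP1 libraries alone Padi2 missed the threshold (edgeR adjusted p = 0.0651).

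Fos, Dusp1 and Rgs1 belong to the genes that respond within minutes to a signal. Fos encodes the AP-1 subunit c-Fos, Dusp1 a phosphatase that switches off MAP kinases, and Rgs1 a protein that shortens G-protein signals at chemokine receptors. Fos had 173 and 147 CPM in PARP1 WT and 69.7 and 47.1 CPM in PARP1CKO. Dusp1 had 61.0 and 54.2 CPM in PARP1 WT and 28.1 and 21.8 CPM in PARP1CKO (log2 fold change -1.20, SE 0.137, edgeR adjusted p = 0.0187). Rgs1 had 144 and 115 CPM in PARP1 WT and 69.2 and 52.8 CPM in PARP1CKO (log2 fold change -1.08, SE 0.138, adjusted p = 0.0355). With the 4 PARP1 libraries alone Fos and Rgs1 missed the threshold (edgeR adjusted p = 0.0527 and 0.0687). Fos also missed it with the replicate block (adjusted p = 0.0718). For all 3 genes PARP1CKO replicate 2 was the lowest and PARP1 WT replicate 1 the highest of the 4 libraries, and every PARP2 library lay above both PARP1CKO libraries, for Fos from 126 to 186 CPM.

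The whole list of immediate-early genes held 25 genes, and all 25 were tested. Fos was the 1 member called by the quasi-likelihood test, against 0.0758% of all genes called lower, and the likelihood-ratio test called 5, all lower, against 0.508%. In 12 members both PARP1CKO libraries lay below both PARP1 WT libraries, and in 1 both lay above, against 20.2% and 21.0% of all genes tested. At an unadjusted p under 0.05 there were 8 lower and 1 higher member, against 5.15% and 6.11% of all genes, and the median log2 fold change of the list was -0.16 against 0.01 for all genes. These list counts are descriptions, since the list was drawn up with earlier results known. Fosb, a second Fos family subunit, had 6.82 and 6.45 CPM in PARP1 WT and 0.932 and 0.619 CPM in PARP1CKO, the widest gap of the list (log2 fold change -3.08, SE 0.443, edgeR adjusted p = 0.0549). Egr1, a zinc finger factor of the same wave, had 72.5 and 51.7 CPM in PARP1 WT and 14.5 and 7.17 CPM in PARP1CKO (log2 fold change -2.51, adjusted p = 0.0597). Both genes narrowly missed the threshold and were called by the likelihood-ratio test and by DESeq2.

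The differences of the other members were far smaller. Zfp36, whose protein destroys cytokine mRNAs, had 211 and 204 CPM in PARP1 WT and 174 and 148 CPM in PARP1CKO (log2 fold change -0.37). Klf6, a Krüppel-like factor, had 402 and 384 CPM in PARP1 WT and 345 and 328 CPM in PARP1CKO (log2 fold change -0.22). Klf2 (-0.47, and -0.30 without PARP1 WT replicate 2), Ier2 (-0.34) and Ier5 (-0.16) had unadjusted p-values under 0.05 in the same direction, and Jund, a Jun family factor, was the 1 member of this kind with a higher level (0.32). With a correction for GC content Jund went from 0.32 to 0.13, and it was 0.16 without PARP1 WT replicate 1 and 0.50 without replicate 2. Egr3, Nr4a1, Nr4a2 and Maff were lower without overlap at log2 fold changes from -0.36 to -0.13. With 1 library left out Nr4a1 (-0.18) ranged from -0.27 to -0.09 and Maff (-0.13) from -0.21 to -0.07. The remaining 12, Jun, Junb, Myc, Atf3, Btg2, Egr2, Fosl1, Fosl2, Ier3, Klf4, Nr4a3 and Srf, overlapped between the groups. Fosb, Egr1 and Fos thus stood apart by size from the rest of the list.

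**Figure D2:**
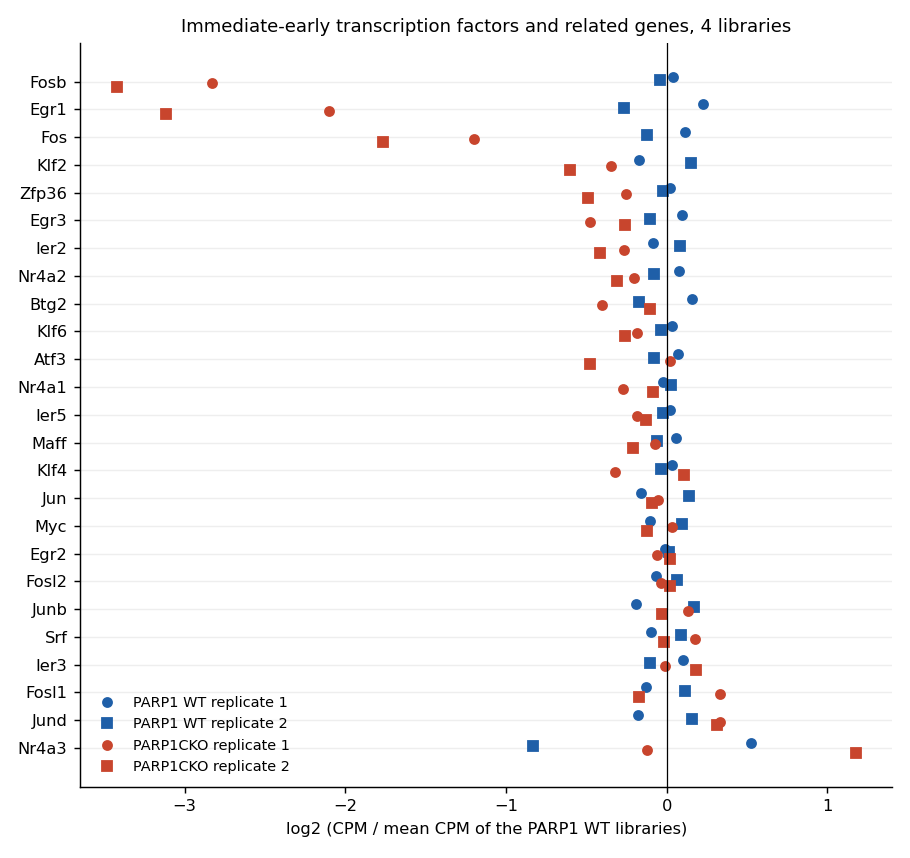
Level of the 25 immediate-early genes in the 4 libraries, as log2 of CPM over the mean of the PARP1 WT libraries (horizontal axis), ordered by fold change. Fosb, Egr1 and Fos lie more than 1 unit to the left in both PARP1CKO libraries, and 12 genes overlap between the groups.

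The promoters of Fos, Fosb and Dusp1 are printed because these genes were low together. Each is the RefSeq window of GRCm38.p6 from 250 bases before to 50 bases after the annotated start, 5′ to 3′ on the gene's own strand. Capitals mark TGACG on either strand, the core of the site bound by CREB and ATF factors, and TATAAA on either strand, the TATA box.
Fos, chr12:85473640-85473939, plus strand: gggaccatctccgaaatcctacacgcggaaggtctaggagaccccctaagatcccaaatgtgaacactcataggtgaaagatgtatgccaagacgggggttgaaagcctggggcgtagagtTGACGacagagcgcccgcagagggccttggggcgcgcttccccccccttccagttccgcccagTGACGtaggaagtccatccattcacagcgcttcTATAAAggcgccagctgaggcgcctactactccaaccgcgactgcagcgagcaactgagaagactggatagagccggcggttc
Fosb, chr7:19309996-19310295, minus strand: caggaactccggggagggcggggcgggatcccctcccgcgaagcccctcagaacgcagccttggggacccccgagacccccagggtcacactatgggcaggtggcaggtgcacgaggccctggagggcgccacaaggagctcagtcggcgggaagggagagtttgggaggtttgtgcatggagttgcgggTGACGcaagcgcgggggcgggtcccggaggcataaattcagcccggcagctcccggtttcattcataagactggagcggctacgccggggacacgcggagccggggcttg
Dusp1, chr17:26508423-26508722, minus strand: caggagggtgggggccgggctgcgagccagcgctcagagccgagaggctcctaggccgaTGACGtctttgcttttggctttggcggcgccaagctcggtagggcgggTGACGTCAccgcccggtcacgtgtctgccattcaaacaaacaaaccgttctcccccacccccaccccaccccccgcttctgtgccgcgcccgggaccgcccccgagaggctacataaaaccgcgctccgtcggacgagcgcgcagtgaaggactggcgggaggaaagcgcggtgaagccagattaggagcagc
Among all 32851 promoter windows of the same length 20.8% hold TGACG, 13.6% hold TATAAA and 1.79% hold the full palindrome TGACGTCA, in which TGACG overlaps its own reverse complement. Fos has TGACG from -129 to -125 and from -66 to -62, counted from the start, and TATAAA from -33 to -28. Fosb has TGACG once, from -60 to -56, and Dusp1 has it from -191 to -187 and, as the palindrome, from -143 to -136. Windows were found for 7 of 10 genes looked up, and Klf2 also held TGACG, whereas Klf6, Zfp36 and Ier5 did not hold these letters in this window. These matches are letters only, and no binding was measured here.

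Other brakes on signalling were examined beside Dusp1 and Rgs1. Of 16 MAP kinase phosphatases and Spry and Spred proteins, all tested, Dusp1 was the 1 member called, against 0.0758% of all genes called lower, and the median log2 fold change of the list was 0.06. Without overlap, 3 members were higher and 2 lower, against 21.0% and 20.2% of all genes. Spry4, an inhibitor of receptor tyrosine kinase signals, had 0.827 and 0.867 CPM in PARP1 WT and 1.59 and 1.46 CPM in PARP1CKO (log2 fold change 0.84, edgeR adjusted p = 0.172). Dusp4 and Dusp7, which act on ERK in the nucleus and in the cytoplasm, had log2 fold changes of 0.11 and 0.17, or 0.06 and 0.10 with the GC correction, and Dusp7 was 0.06 without PARP1 WT replicate 1 and 0.29 without replicate 2. Dusp5 was lower without overlap (-0.15, and from -0.28 to -0.03 with 1 library left out), and Dusp2, Dusp3, Dusp6, Dusp8, Dusp10, Dusp14, Dusp16, Spry1, Spry2, Spred1 and Spred2 overlapped between the groups. Of 9 RGS genes tested, 4 were lower and 1 higher without overlap, against 20.2% and 21.0% of all genes. Rgs2 had 144 and 137 CPM in PARP1 WT and 127 and 105 CPM in PARP1CKO (log2 fold change -0.28, and -0.15 without PARP1CKO replicate 2 or -0.42 without replicate 1), and Rgs18 had 59.0 and 64.1 CPM against 54.2 and 55.2 CPM (-0.17, and -0.11 without PARP1 WT replicate 2). Rgs1, Rgs2 and Rgs18 are neighbours on chromosome 1, with Uchl5 beside them (-0.17), and all 4 lay lower in both PARP1CKO libraries.

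Mbd2, a reader of methylated DNA that recruits the NuRD repressor complex, was lower in PARP1CKO than in PARP1 WT, together with its neighbours. Mbd2, at chr18:70568189-70626131, had 173 and 218 CPM in PARP1 WT and 110 and 103 CPM in PARP1CKO (log2 fold change -0.88, SE 0.0914, edgeR adjusted p = 0.0134). It missed the threshold with the 4 PARP1 libraries alone (edgeR adjusted p = 0.0527). The 4 tested genes before it on the chromosome, Rab27b, 4930503L19Rik, Stard6 and Poli, lay lower as well, with log2 fold changes from -0.99 to -0.79. The likelihood-ratio test called all 4, and DESeq2 called 4930503L19Rik and Poli but not Rab27b and Stard6. Poli, a DNA polymerase that copies past damaged bases, had 13.6 and 18.6 CPM in PARP1 WT and 8.47 and 7.83 CPM in PARP1CKO. Rab27b, a GTPase of secretory vesicles, had 29.8 and 49.4 CPM against 18.8 and 24.3 CPM, with a log2 fold change of -0.89 that was -0.47 without PARP1 WT replicate 2. Stard6, a lipid-transfer protein, had 3.02 and 3.77 CPM against 1.71 and 1.75 CPM.

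The 8 libraries show where this difference lies. Mbd2 ranged only from 103 to 112 CPM in the 6 libraries other than PARP1 WT, so PARP1CKO was at the level of the PARP2 libraries and PARP1 WT was above it. PARP1 WT replicate 1 was 1.60 times and PARP1 WT replicate 2 was 2.02 times the mean of those 6 libraries. Over the 5 genes this ratio ran from 1.47 to 1.71 in replicate 1, with a median of 1.55, and from 2.02 to 2.43 in replicate 2, with a median of 2.11. The flanking tested genes did not share it. Tcf4, on the side of Rab27b, was at 1.06 and 1.09 times the mean of the other 6, and Mex3c, on the side of Mbd2, was at 0.995 and 1.03 times. The block was picked out after its values were seen and carries no test of its own. For these genes, the difference between the groups was a high level in PARP1 WT, greater in replicate 2 than in replicate 1.

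**Figure D3:**
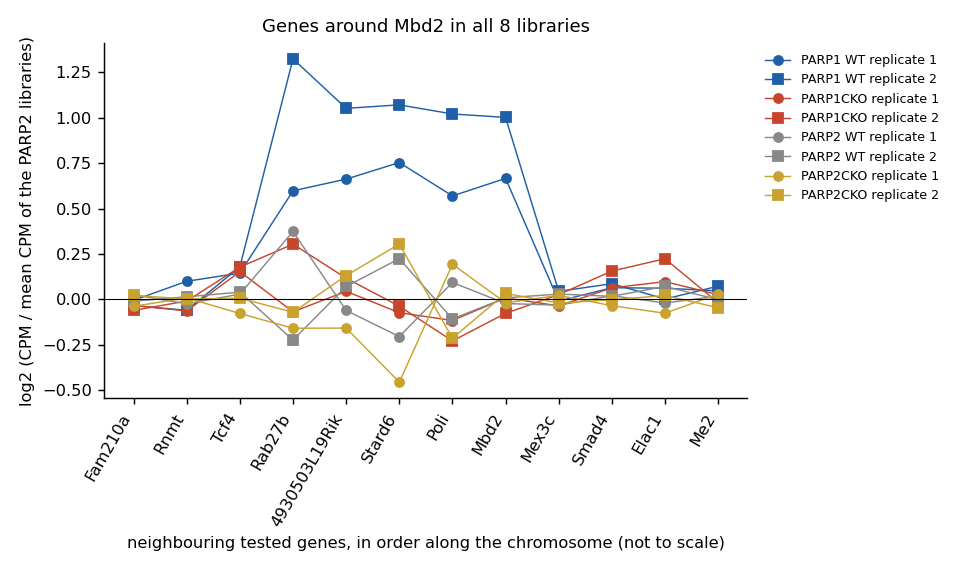
Levels of neighbouring genes around Mbd2 in all 8 libraries, as log2 of CPM over the mean of the 4 PARP2 libraries (vertical axis), in order along the chromosome and not to scale. The PARP1 WT libraries lie apart from Rab27b to Mbd2, replicate 2 above replicate 1, and return to the other libraries at Tcf4 and Mex3c.

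Pira1, Pira7 and Pira4 belong to the paired immunoglobulin-like receptors A, activating receptors of myeloid cells that bind MHC class I molecules and signal through the Fc receptor gamma chain. Pira1 had 43.9 and 41.9 CPM in PARP1 WT and 29.8 and 29.5 CPM in PARP1CKO (log2 fold change -0.53, edgeR adjusted p = 0.0355). Pira7 and Pira4 had log2 fold changes of -0.54 and -0.53 (adjusted p = 0.0385 and 0.0407). Pira2, Pira11 and Pira6 were lower by like amounts, with -0.53, -0.51 and -0.50. They missed the threshold of the quasi-likelihood test, and the likelihood-ratio test and DESeq2 called all 3. These genes are near-identical copies whose reads the counting may have shared, so they cannot be read as separate events. Pirb, the inhibitory receptor of the family, had 244 and 255 CPM in PARP1 WT and 245 and 227 CPM in PARP1CKO and overlapped between the groups. Next to Pira2 at chr7:3836812-3845051 lie Gm14548, Lilra6 and Lair1, an inhibitory collagen receptor, which were lower without overlap (log2 fold changes -0.48, -0.52 and -0.22). Lilra6 went to -0.29 without PARP1 WT replicate 2. Lilrb4, an inhibitory receptor on chromosome 10, had 1059 and 1111 CPM in PARP1 WT and 931 and 960 CPM in PARP1CKO (-0.20).

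Lysozyme genes bear on the Cre driver, since the Cre allele sits in Lyz2. Lyz2 had 5712 and 6387 CPM in PARP1 WT and 3495 and 4334 CPM in PARP1CKO, with no overlap (log2 fold change -0.63, SE 0.116, edgeR adjusted p = 0.135). Its neighbour and close copy Lyz1 had 259 and 253 CPM in PARP1 WT and 150 and 184 CPM in PARP1CKO (log2 fold change -0.62, adjusted p = 0.0738). Both were called by the likelihood-ratio test and DESeq2. Under the same Cre in the other deletion, the log2 fold changes of Lyz2 and Lyz1 were -0.72 and -0.45, and the differences between the deletions did not pass (adjusted p = 0.915 and 0.783). Reads shared between these copies were not measured.

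Among the 22 genes of macrophage identity the quasi-likelihood test called none, and the likelihood-ratio test called Lyz2 alone, against 0.508% of all genes called lower. Ccr2, the receptor that brings monocytes to inflamed tissue, had 71.3 and 69.8 CPM in PARP1 WT and 48.7 and 62.8 CPM in PARP1CKO (log2 fold change -0.34, and -0.17 without PARP1CKO replicate 1 or -0.54 without replicate 2). Emr1 lay higher, with a log2 fold change of 0.15, or 0.10 without PARP1 WT replicate 2. Of 16 tested genes of resident-type macrophages, 4 were higher and 1 lower without overlap, near the 21.0% of all genes for higher members. Folr2, a folate receptor of tissue macrophages, had 30.6 and 26.8 CPM in PARP1 WT and 45.6 and 43.8 CPM in PARP1CKO (log2 fold change 0.64, SE 0.115, edgeR adjusted p = 0.125), and the likelihood-ratio test called it. Cd5l, a secreted protein that keeps macrophages alive, had 32.5 and 36.0 CPM against 48.1 and 51.4 CPM (0.53), and Stab1, a scavenger receptor, had 1926 and 2065 CPM against 2366 and 2304 CPM (0.23). Axl, a receptor for dying cells, was the lower one, with 53.8 and 45.0 CPM against 28.6 and 42.2 CPM (-0.48, and -0.22 without PARP1CKO replicate 1 or -0.78 without replicate 2).

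Genes of lipid and iron handling differed without overlap at rates near or below those of all genes, apart from the higher genes of iron handling. Of 18 lipid uptake genes tested 4 were higher and 2 lower in this way, and of 28 of sterol synthesis also 4 and 2. Of 16 iron handling genes 6 were higher and 3 lower, and the shares of all genes were 21.0% and 20.2%. Cd36, Srebf1, Mylip and Tfrc missed the threshold of the quasi-likelihood test. The likelihood-ratio test called them, against 0.599% of all genes called higher and 0.508% called lower, and DESeq2 called Cd36, Srebf1 and Tfrc. Cd36, a receptor for fatty acids and oxidised lipoproteins, had 1603 and 1612 CPM in PARP1 WT and 1271 and 1133 CPM in PARP1CKO (log2 fold change -0.42, SE 0.0724, edgeR adjusted p = 0.110). Srebf1, a master factor of lipid synthesis, had 107 and 109 CPM in PARP1 WT and 124 and 127 CPM in PARP1CKO (0.21, and 0.13 with the GC correction). Mylip, which degrades the LDL receptor, had 46.0 and 46.1 CPM against 52.9 and 57.1 CPM (0.26). Tfrc, the transferrin receptor, had 379 and 386 CPM in PARP1 WT and 462 and 483 CPM in PARP1CKO (0.31, adjusted p = 0.172). These groups had medians of 0.02 for lipid uptake, 0.02 for sterol synthesis and 0.03 for iron handling, against 0.01 for all genes. Atf5, a stress-response factor, had 71.3 and 69.2 CPM in PARP1 WT and 87.8 and 98.6 CPM in PARP1CKO (0.41, adjusted p = 0.0549). It was the nearest to the threshold of 23 genes of the ATF4 and amino acid response. With the GC correction it was 0.29 (edgeR adjusted p = 0.320).

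The response to type I interferon differed by library more than by genotype. All 32 genes of the list had a fitted log2 fold change above 0, as had 6874 of the 13197 genes tested, and the median was 0.37. None was called by the quasi-likelihood or likelihood-ratio test, 3 were higher without overlap, against 21.0% of all genes, and 6 had an unadjusted p under 0.05, against 6.11% for higher genes. Against the mean of the PARP1 WT libraries the median of the list was 0.26 in PARP1 WT replicate 1, -0.26 in PARP1 WT replicate 2, 0.02 in PARP1CKO replicate 1 and 0.68 in PARP1CKO replicate 2. Ifit3, an antiviral protein, had 5.25 and 2.76 CPM in PARP1 WT and 4.18 and 10.2 CPM in PARP1CKO, and Irf7, the factor that amplifies the response, had 21.7 and 14.7 CPM against 20.3 and 32.9 CPM. In both genes PARP1CKO replicate 1 lay between the PARP1 WT libraries and PARP1CKO replicate 2 above all. The 3 without overlap were Bst2 (0.24), Oas2 (0.41) and Stat2 (0.27), and without PARP1CKO replicate 2 they were 0.15, 0.25 and 0.12. The fitted median of the list was 0.00571 without PARP1CKO replicate 2, 0.638 without PARP1CKO replicate 1, 0.695 without PARP1 WT replicate 1 and 0.139 without PARP1 WT replicate 2. Guanylate-binding and immunity-related GTPases followed the same libraries, with a fitted median of 0.17 that was -0.17 without PARP1CKO replicate 2, 0.42 without PARP1CKO replicate 1, 0.37 without PARP1 WT replicate 1 and -0.01 without PARP1 WT replicate 2. B cell genes did so too, with a median of 0.27 that was -0.04 without PARP1CKO replicate 2, 0.53 without PARP1CKO replicate 1 and 0.14 without PARP1 WT replicate 2, and their part in the interferon values was not tested.

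Some erythroid genes lay higher in both PARP1CKO libraries. Of 19 listed genes 11 were tested, 6 were higher without overlap, against 21.0% of all genes, 3 had a log2 fold change below 0, and the median was 0.36, or 0.73 without PARP1 WT replicate 1 and 0.56 without PARP1CKO replicate 1. The list holds Tfrc, which other dividing cells express too, and counts the twin genes Hba-a1 and Hba-a2 separately. Without Tfrc and Hba-a2, 4 of 9 were higher without overlap, none of the 9 passed 3.83 CPM in a library, and the median was again 0.36. Hba-a1, a haemoglobin chain counted identically with its copy Hba-a2, had 1.99 and 1.77 CPM in PARP1 WT and 3.11 and 3.83 CPM in PARP1CKO. Alas2 and Klf1, which define red cell precursors, had at most 10 counts in any of the 4 libraries. Stromal genes had a median of -0.29, with PARP1 WT replicate 2 the highest library, and Col1a1 lay between 0.694 and 1.41 CPM. Whether such admixed cells touch other results was not tested.

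Genes of mitosis and G2/M lay slightly and widely lower in PARP1CKO. Of 30 genes of mitosis and G2/M, 24 were lower without overlap and none higher, against 20.2% and 21.0% of all genes, and 11 had an unadjusted p under 0.05, all lower, against 5.15%. None was called by the quasi-likelihood or the likelihood-ratio test. The size was small, the median log2 fold change being -0.08 with a range from -0.16 to 0.11. Hmmr, a spindle protein, had 83.3 and 81.8 CPM in PARP1 WT and 75.8 and 73.0 CPM in PARP1CKO (-0.15, and -0.10 with the GC correction). Cenpe, a kinetochore motor, had 116 and 113 CPM against 104 and 101 CPM (-0.16), and Ccna2, the cyclin of S and G2 phases, had 177 and 185 CPM against 166 and 160 CPM (-0.15). In the PARP2 libraries Hmmr ranged from 71.8 to 77.5 CPM, Cenpe from 93.6 to 100.7 CPM and Ccna2 from 150 to 160 CPM. Both PARP1 WT libraries lay above these ranges. Both PARP1CKO libraries did so too for Cenpe, and PARP1CKO replicate 1 did for Ccna2, while for Hmmr both PARP1CKO libraries were inside the range. The list had a median GC content of 47.6%, under the 50.3% of all genes, and with the GC correction its median was -0.06 and 7 of those 11 members still had an unadjusted p under 0.05. With single libraries left out the median stayed between -0.11 and -0.07, and 7 lower members had such a p without PARP1CKO replicate 2. Genes of replication and G1/S, also 30, had 12 lower and 3 higher without overlap, against the same shares of all genes, and a median of -0.03. At an unadjusted p under 0.05 they had 1 lower and 2 higher, against 5.15% and 6.11% of all genes.

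Chaperones showed a like pattern. Of 19 tested heat shock chaperones and their partners, most of the cytosol and 2 of mitochondria (Hspd1 and Hspe1), 11 were lower and 2 higher without overlap, against 20.2% and 21.0% of all genes. At an unadjusted p under 0.05 there were 7, all lower, against 5.15% of all genes. The median was -0.07, and it ranged from -0.11 without PARP1CKO replicate 1 to -0.05 without PARP1 WT replicate 2. Ppid, a cyclophilin that works with HSP90, had 48.5 and 49.8 CPM in PARP1 WT and 40.1 and 39.8 CPM in PARP1CKO (log2 fold change -0.30, SE 0.0457, edgeR adjusted p = 0.0717) and was the 1 member called by the likelihood-ratio test. Hspd1, the mitochondrial HSP60, had 442 and 432 CPM against 391 and 389 CPM (-0.16). With the GC correction 5 of those 7 still had an unadjusted p under 0.05. A list of the unfolded protein response and chaperones of the endoplasmic reticulum had 6 lower and 2 higher of 19 without overlap, against 20.2% and 21.0% of all genes. At an unadjusted p under 0.05 it had 2 lower and 1 higher, against 5.15% and 6.11%. Pdia3, a disulfide isomerase, had the smallest p of the list, with 935 and 927 CPM against 850 and 842 CPM (-0.14), and the median of the list was -0.04. Syvn1 was the higher member with such a p, at 82.2 and 86.4 CPM against 95.4 and 91.5 CPM (0.15, and 0.08 with the GC correction).

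Adhesion genes lay lower as well. Of 21 leukocyte integrins and adhesion genes, 12 were lower and 3 higher without overlap, against 20.2% and 21.0% of all genes. At an unadjusted p under 0.05 there were 6 lower and 1 higher, against 5.15% and 6.11%, and the 6 became 2 without PARP1 WT replicate 2. The median was -0.10, or -0.13 with the GC correction. Sdc4, a heparan sulfate proteoglycan, had 58.3 and 54.0 CPM in PARP1 WT and 46.1 and 47.6 CPM in PARP1CKO (log2 fold change -0.26, edgeR adjusted p = 0.149). Sdc1, a second syndecan, had 11.04 and 12.01 CPM against 7.02 and 6.53 CPM (-0.77), and Itgb7, the beta chain of gut-homing integrins, had 91.4 and 86.9 CPM against 68.9 and 74.1 CPM (-0.32). Cadm1, an immunoglobulin-family adhesion molecule, went the other way, with 172 and 165 CPM against 231 and 197 CPM (0.34, and 0.22 without PARP1CKO replicate 1).

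Lysosomal genes leaned the other way. Of 33 proteases, pump subunits and regulators, all tested, 16 were higher and 3 lower without overlap, against 21.0% and 20.2% of all genes, and the median was 0.06. It was 0.02 with the GC correction and 0.03 without PARP1CKO replicate 1. Ctsd, the aspartic protease of lysosomes, had 14091 and 14041 CPM in PARP1 WT and 15127 and 15140 CPM in PARP1CKO (0.11, and 0.07 with the GC correction), and Ctsh, a cysteine protease, had 94.6 and 102 CPM against 88.1 and 89.3 CPM (-0.15, and -0.10 without PARP1 WT replicate 2). At an unadjusted p under 0.05 there was 1 member in each direction, against 6.11% higher and 5.15% lower of all genes. These became 5 higher and 0 lower without PARP1CKO replicate 2 and 0 in both directions without PARP1CKO replicate 1. Ctsk, the osteoclast collagenase, rested on PARP1CKO replicate 1, with 11.7 and 12.4 CPM in PARP1 WT and 19.4 and 13.1 CPM in PARP1CKO (0.44, and 0.13 without it or 0.69 without replicate 2), and the 15 tested osteoclast genes had a median of 0.02.

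**Figure D4:**
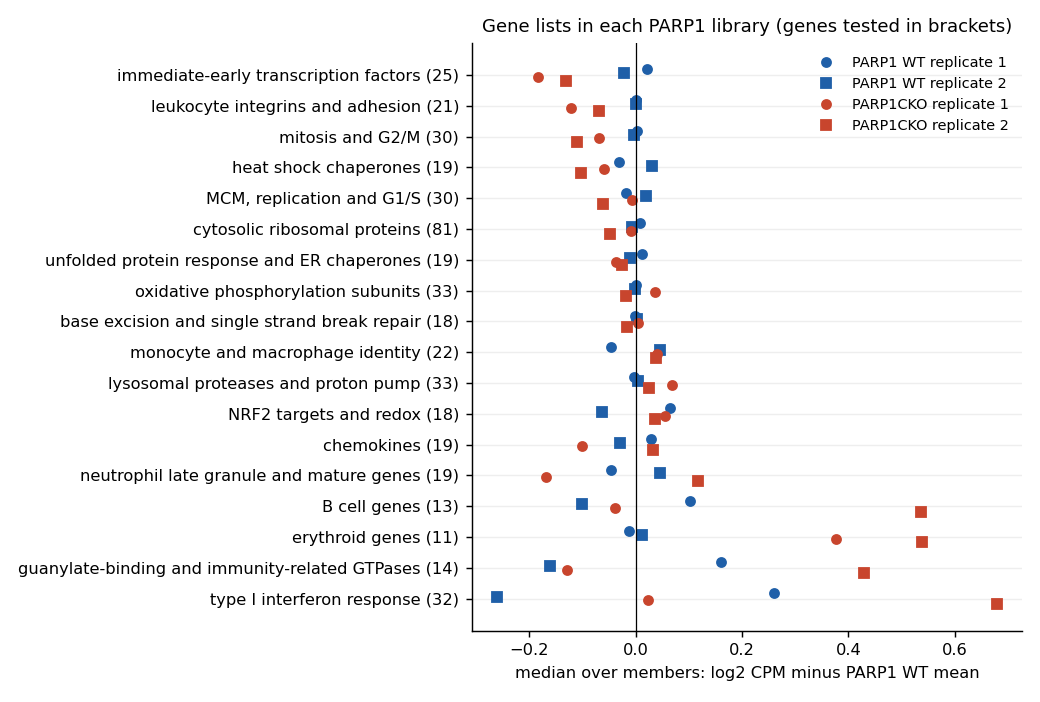
Median over the members of 18 gene lists in each of the 4 libraries, as log2 CPM minus the mean of the PARP1 WT libraries (horizontal axis), with the number of genes tested in brackets. Immediate-early, adhesion, mitosis and chaperone lists lie to the left in both PARP1CKO libraries, and the interferon and B cell lists lie far to the right in PARP1CKO replicate 2 alone.

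Repair and other pathways in which PARP1 is known to act were examined as well. Of 18 genes of base excision and single-strand break repair 1 was higher and 2 lower without overlap, against 21.0% and 20.2% of all genes, and the median was -0.01. Hmgb1, a chromatin protein, had 455 and 467 CPM in PARP1 WT and 413 and 415 CPM in PARP1CKO (-0.16, and -0.11 with the GC correction). The 19 tested p53 targets had a median of -0.02, with Gdf15, a stress cytokine, at 49.4 and 59.5 CPM against 65.6 and 67.3 CPM (0.29, and 0.16 without PARP1 WT replicate 1 or with the GC correction). NAD synthesis and use had a median of 0.05 over 17 tested genes. The 19 genes of NF-kB and its inhibitors had a median of 0.02, with Tnip3, an inhibitor, the lowest at 42.1 and 41.1 CPM against 33.0 and 32.2 CPM (-0.35, edgeR adjusted p = 0.211). Inflammatory cytokines and chemokines had medians of -0.11 and -0.07. The quasi-likelihood test called none of them and the likelihood-ratio test called Cxcl2. Cxcl2, a neutrophil attractant, had 3.46 and 2.42 CPM against 1.31 and 1.48 CPM (-1.07). Among 22 chromatin remodellers 8 were higher and 6 lower without overlap, against the same shares of all genes. Chd3, a NuRD helicase, had 46.7 and 43.7 CPM against 62.8 and 69.4 CPM (log2 fold change 0.55, SE 0.0969, edgeR adjusted p = 0.122) and was called by the likelihood-ratio test. Of 52 lists with a tested member, 47 had no gene called by the quasi-likelihood test and 30 none called by the likelihood-ratio test, and 41 had a median between -0.1 and 0.1.

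The likelihood-ratio test also called Atf5, Mir6904, Spry4, Sdc4, Cadm1, Hba-a1, Tnip3, Gm14548, Erdr1 and Cacna1e, none of which passed the quasi-likelihood test. Some further genes stood out by size alone. The 10 largest differences among genes with an unadjusted p under 0.05, a mean of at least 1 CPM and no overlap were those of Fosb, Egr1, Erdr1, Parp1, Mir6904, Fos, H2-T10, Dusp1, Cacna1e and Rgs1. Erdr1, an erythroid differentiation regulator, had 1.29 and 2.38 CPM in PARP1 WT and 11.7 and 3.83 CPM in PARP1CKO. Its difference rested on PARP1CKO replicate 1 and went from a log2 fold change of 2.06 to 1.02 without that library. The PARP2 libraries held 8.59 to 10.1 CPM of Erdr1, above both PARP1 WT libraries and PARP1CKO replicate 2. H2-T10, a non-classical MHC class I gene, rested on PARP1CKO replicate 2, with 2.43 and 1.87 CPM against 2.60 and 7.68 CPM (1.26, and 0.28 without it). Cacna1e, a calcium channel subunit, had 0.620 and 0.826 CPM against 1.35 and 1.88 CPM (1.14). All 4 libraries expressed Y-linked genes. Eif2s3y was at 81.1, 76.0 and 70.8 CPM in PARP1 WT replicates 1 and 2 and PARP1CKO replicate 1 and at 32.7 CPM in PARP1CKO replicate 2, and Ddx3y was at 95.8, 86.8, 84.9 and 67.3 CPM in the same order. Without PARP1CKO replicate 2 the log2 fold change of Eif2s3y went from -0.60 to -0.15 and that of Ddx3y from -0.26 to -0.10.

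Fold changes followed the GC content of genes. GC content was taken over the GENCODE transcripts of 13034 tested genes, and no p is given because genes are not independent. In 10 equal bins of genes by GC, the median log2 fold change climbed from -0.05 in the bin with a median GC of 40.4% to 0.10 in the bin of 59.7%, and the share of genes with a fold change above 0 went from 29.5% to 78.5%. The top quintile of genes by GC lay 0.126 above the bottom quintile in the fitted log2 fold change, and Spearman's rho across genes was 0.33, or 0.44 over the 8626 genes of at least 10 CPM. Genes with an unadjusted p under 0.05 were divided along this axis. The lowest bin held 160 lower and 18 higher such genes, and the highest bin held 12 lower and 225 higher. Transcript length in place of GC gave a difference of 0.00635, and PARP2CKO against PARP2 WT gave 0.0278.

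The trend was carried unequally by the libraries. Against the mean of the 4 libraries, the top quintile minus the bottom quintile was -0.0907 in PARP1 WT replicate 1, -0.0305 in PARP1 WT replicate 2, 0.0960 in PARP1CKO replicate 1 and 0.0321 in PARP1CKO replicate 2. Both PARP1CKO libraries were thus on one side and both PARP1 WT libraries on the other, while replicates of the same group also differed, by -0.0624 between the PARP1 WT libraries and 0.0627 between the PARP1CKO libraries. Every PARP1CKO library against every PARP1 WT library gave a positive value, from 0.0636 for the pair of replicates 2 to 0.191 for the pair of replicates 1. With 2 libraries a group, a trend of genotype and differences between single libraries cannot be told apart. A smooth GC correction of each library brought the difference to 0.0012, kept all 14 called genes among 15 calls and reduced the genes with an unadjusted p under 0.05 from 1486 to 1230, of which 630 were higher (4.77%) and 600 lower (4.55%). Among the called genes it moved Pdlim4 from 0.58 to 0.49 and Mbd2 from -0.88 to -0.97.

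**Figure D5:**
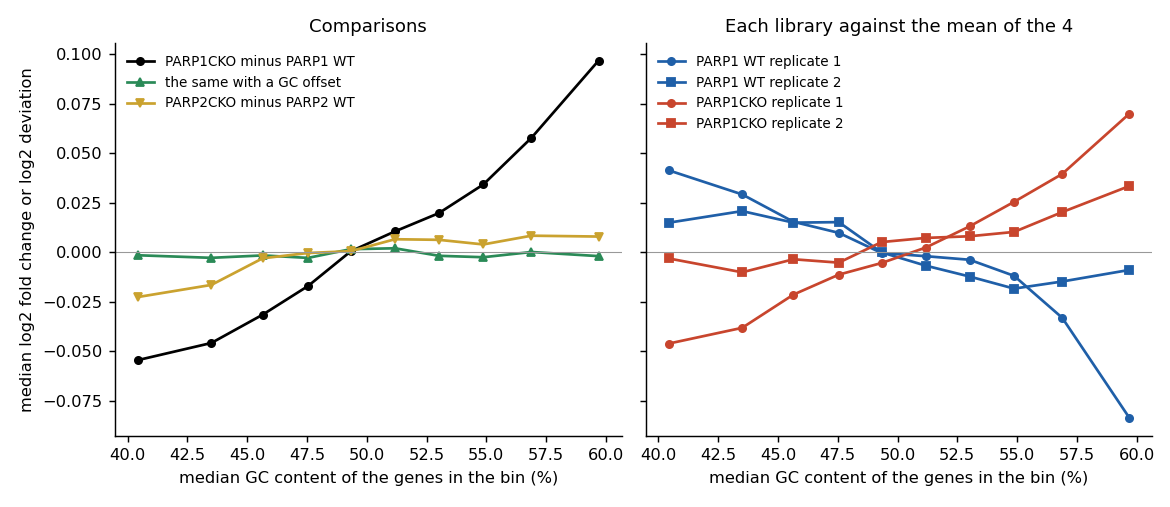
Median log2 fold change (left) and median log2 deviation of each library from the mean of the 4 (right) in 10 bins of genes against their median GC content in percent. The fold change climbs from -0.05 to 0.10 and is flat after the GC correction, and PARP1 WT replicate 1 and PARP1CKO replicate 1 have the steepest lines.

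The called genes were last compared with the other deletion in the same model. None of the 14 differences between the PARP1CKO and PARP2CKO effects passed in edgeR's quasi-likelihood test, with adjusted p-values from 0.0552 for Parp1 to 0.372 for Fos, against 0.0152% of all genes that passed. All 14 had an unadjusted p under 0.05 for the difference, against 7.69% of all genes, and as they were picked by the PARP1CKO effect itself this count is a description. For Fos, Dusp1 and Rgs1 the log2 fold changes in PARP2CKO were -0.33, -0.30 and -0.13, and for Fosb and Egr1 they were -1.42 and -1.58. Fosb and Egr1 did not pass there (edgeR adjusted p = 0.849 and 0.538). Their PARP2 WT replicates differed, with 1.73 and 4.69 CPM of Fosb and 41.0 and 79.1 CPM of Egr1. For Siglec1 and Abca9 the log2 fold changes in PARP2CKO were 0.19 and 0.28, and for Mmp12 0.03. The genes of the Pira family had small values above 0 there, such as 0.11 for Pira1. These deletions have separate controls, and they share the Cre driver.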

How the data were processed

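The authors sequenced total RNA (TruSeq Stranded Total RNA, 4 µg a library), mapped the reads to mm10 with TopHat 2.0.12, marked duplicates with Picard 1.127, counted reads on genes with featureCounts and deposited raw counts of 24062 genes. The annotation, the use of strand and the handling of duplicates are not given in the sources used here. Of these genes 6520 had no count and 13197 passed filterByExpr, and genes with close copies may share reads. The labels call the libraries duplicates without naming the mice, so p-values measure the spread between these libraries.

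From the deposited counts, edgeR 4.0.16 (R 4.3.3) fitted the 4 group means of all 8 libraries with TMM factors. Its quasi-likelihood test was used at a Benjamini-Hochberg adjusted p under 0.05. SE is the log2 fold change over the root of F. GC content came from GENCODE M21 transcripts (98.8% of tested genes), and the GC correction used lowess with a span of 0.3. The lists and genes described were chosen with earlier results of these data known. Named were Parp1 and Parp2, called genes, up to 3 members a list by p at a mean of at least 1 CPM, all immediate-early and phosphatase members, the 10 largest differences and identity markers. Not every such gene is given with values. Genes of the Mbd2, Rgs and Pira neighbourhoods were added after their values were seen. Scripts were tested on simulated data. Figures used matplotlib 3.10.9.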

Additional observations from a re-analysis of the deposited data

Results flagged for a closer look

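Parp2 was flagged because the effects of the 2 deletions on it differed by a direct test (edgeR adjusted p = 0.00634). Its log2 fold change was -0.09 in PARP1CKO and -0.91 in PARP2CKO, where Parp2 is the deleted gene, and it lay between 37.0 and 48.3 CPM in the 6 libraries with an intact Parp2 gene.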

How the results depend on the processing

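The limits are 2 libraries a group, no record of which mice they came from, and close gene copies that may share reads. The depth was at least 37852450 counts a library. The 14 called genes became 101 with no filter on low counts, 146 with edgeR's likelihood-ratio test and 86 with DESeq2, and between 1 and 33 with 1 library left out. They numbered 14 with DESeq2 size factors or at least 1 CPM in 2 libraries, 15 with no composition factor or with a GC offset, and 11 with the 4 PARP1 libraries alone, which kept 8 of the 14 and lost Abca9, Afap1, Fos, Mbd2, Padi2 and Rgs1. The log2 fold change of Parp1 lay between -1.80 and -1.71 with 1 library left out and missed the threshold without either PARP1 WT library or without PARP1CKO replicate 2 (adjusted p from 0.0545 to 0.0780). The GC difference of 0.126 became 0.0012 with the GC offset, which was built to remove it, 0.0011 with the replicate block and GC offset, and 0.0213 by GC of the promoter window. None of 103 reported genes changed direction under the settings tried. The labels share replicate numbers. Deviations of same-numbered PARP1 WT and PARP1CKO libraries had a correlation of -0.13 across genes. With 2 libraries a group this value cannot show whether the numbers pair them, and the main fit was unpaired. With the replicate block 14 genes were called and Afap1 and Fos were lost. Crossing the numbers, an alternative added after seeing the data, gave 18 calls.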
